A study of Mus musculus with 6 samples.

Results

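Nova1, Nova2, Rbfox1, Rbfox2, Rbfox3, Ptbp1, Ptbp2, Ptbp3, Srrm3 and Srrm4 encode RNA-binding proteins that set the splicing program of neurons. All entries that carried the GENCODE M21 gene identifier of one of these 10 genes were taken from the lists of splicing and transcript-end events of 6 nucleus accumbens (NAc) libraries. The 10 genes held 569 of 440199 entries, which merged into 145 of 133207 events, and 10 of 16154 listed genes. Each of the 10 genes was listed in every library.

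The libraries came from adult male mice of the C57BL/6N strain that had gone through conditioned place preference, a test in which an animal learns to link a compartment with an injection. The saline group received saline injections and the morphine group received morphine injections in the drug-paired sessions. Each group had 3 libraries, made from total RNA of NAc tissue taken shortly after the preference test. The design text names 6 mice per group. The study's figure text treats each library as the tissue of an individual animal, so whether animals were pooled is uncertain, and p-values then measure only the spread between these libraries. The comparison asked whether the assembled forms of the splicing regulators differed in the NAc after morphine training.

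A splicing event is a difference between transcripts of a gene that were assembled from the reads of the same library. Starts and ends of transcripts are also counted as events, each placed by the splice side of the first or last exon. They are listed even where a gene had a single one, as for the end of Rbfox1, so a listed gene need not have alternative forms. A skipped exon or a retained intron is listed only when both forms, with and without the exon or intron, were assembled there. An exon that was always included is therefore not listed, and a missing entry does not show that a form was absent from the tissue. The lists hold no expression level and no share of inclusion. In this bulk tissue, fewer cells of a type and less RNA per cell cannot be told apart.

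Nova proteins bind clusters of YCAY, in which Y is a pyrimidine, and either promote or repress an exon depending on where the cluster lies. Rbfox proteins bind GCATG and TGCATG, and Rbfox3 is the antigen known as NeuN, a marker of mature neurons. Ptbp proteins bind pyrimidine-rich RNA and mostly repress exons. Ptbp1 is typical of progenitors and glia, Ptbp2 rises as neurons form, and Ptbp3 is a further paralog. Srrm4 and Srrm3 promote the inclusion of neuronal microexons. Members of the Nova, Rbfox and Ptbp families are known to regulate their own and each other's pre-mRNAs.

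The sequences that carry these alternative choices were read from GENCODE M21 transcripts on GRCm38, all on the sense strand of the gene. The Nova1 exon is shown because Nova1 is known to repress an alternative exon of its own transcript through exonic YCAY elements. It lies at chr12:46713498-46713569 on the minus strand and is coding over all 72 of its nucleotides (nt). Capitals mark each YCAY, read as TCAT or the forms with C at the first or last base, and overlaps with other motifs were not removed.
Nova1 72-nt exon: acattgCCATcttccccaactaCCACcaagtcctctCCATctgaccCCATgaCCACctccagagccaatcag
The exon held 5 of these tetramers. Of the 85 annotated exons of this length that the lists give as skipped, the Nova1 exon included, 65.9% held at least 1 and 2.4% held at least 5. The match is a description of letters and not of a binding site.

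The 3 Rbfox genes share a coding exon of 40 nt, the one known in the field as the brain-type exon of the family. It is shown because the lists gave it in a different way for each of the 3 genes. It lies at chr16:7363865-7363904 on the plus strand in Rbfox1, at chr15:77094451-77094490 on the minus strand in Rbfox2 and at chr11:118496351-118496390 on the minus strand in Rbfox3. Capitals mark the 30 bases that were the same in all 3 genes.
Rbfox1 40-nt exon: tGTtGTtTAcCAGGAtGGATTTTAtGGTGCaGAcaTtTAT
Rbfox2 40-nt exon: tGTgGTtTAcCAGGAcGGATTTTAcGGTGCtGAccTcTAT
Rbfox3 40-nt exon: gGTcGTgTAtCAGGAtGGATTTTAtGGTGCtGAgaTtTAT
Rbfox1 matched Rbfox2 at 34 of 40 bases and Rbfox3 at 34 of 40, while Rbfox2 and Rbfox3 matched at 31 of 40. GCATG was in none of the 3. Of the 22 annotated skipped exons of 40 nt in the lists, 4.5% held GCATG.

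The 34-nt exons of Ptbp1 and Ptbp2 are shown because Ptbp proteins are known to repress them, which leads to decay of the transcript. The exon of Ptbp1 lies at chr10:79862014-79862047 on the plus strand and that of Ptbp2 at chr3:119724612-119724645 on the minus strand. Capitals mark bases that both share.
Ptbp1 34-nt exon: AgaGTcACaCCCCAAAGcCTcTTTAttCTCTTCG
Ptbp2 34-nt exon: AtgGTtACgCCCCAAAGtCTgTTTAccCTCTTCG
The exons matched at 26 of 34 bases.

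Ptbp2 and Ptbp3 each had an exon with acceptors 15 nt apart, which is a multiple of 3. The Ptbp2 exon lies at chr3:119726066-119726220 and the Ptbp3 exon at chr4:59485607-59485746, both on the minus strand. Capitals mark the extension that only the longer form carries, followed by the first 30 bases that both forms share.
Ptbp2 acceptors: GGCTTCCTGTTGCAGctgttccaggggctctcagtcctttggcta
Ptbp3 acceptors: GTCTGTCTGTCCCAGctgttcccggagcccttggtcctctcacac
The extensions of the paralogs matched at 10 of 15 bases and the next 30 bases at 20 of 30.

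The 10 genes together had 67, 68 and 80 events in the saline libraries and 66, 74 and 71 in the morphine libraries. The groups overlapped, with means of 71.7 ± 7.23 for saline and 70.3 ± 4.04 for morphine (SD, n = 3 each). The two-sided exact permutation test gave p = 0.8, where 3 libraries against 3 allow no p below 0.1. The files give no total read number. The relative depth, obtained from counts and FPKM of the same transcripts, lay between 1 in saline 1 and 1.594 in morphine 2, and saline 3 had 1.365. Listed events of all genes numbered between 54750 and 62313 per library. All 9 markers of striatal projection neurons were listed in every library, as were all 8 of other neurons, all 5 of oligodendrocytes, all 4 of astrocytes, all 4 of microglia and both of ependyma. Of 3 endothelial markers 2 were listed in every library and Cldn5 in none, while 1 or 2 of the 2 choroid plexus markers were listed. A listing is not a level, and the part of cell composition in the event numbers was not tested.

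**Figure D1:**
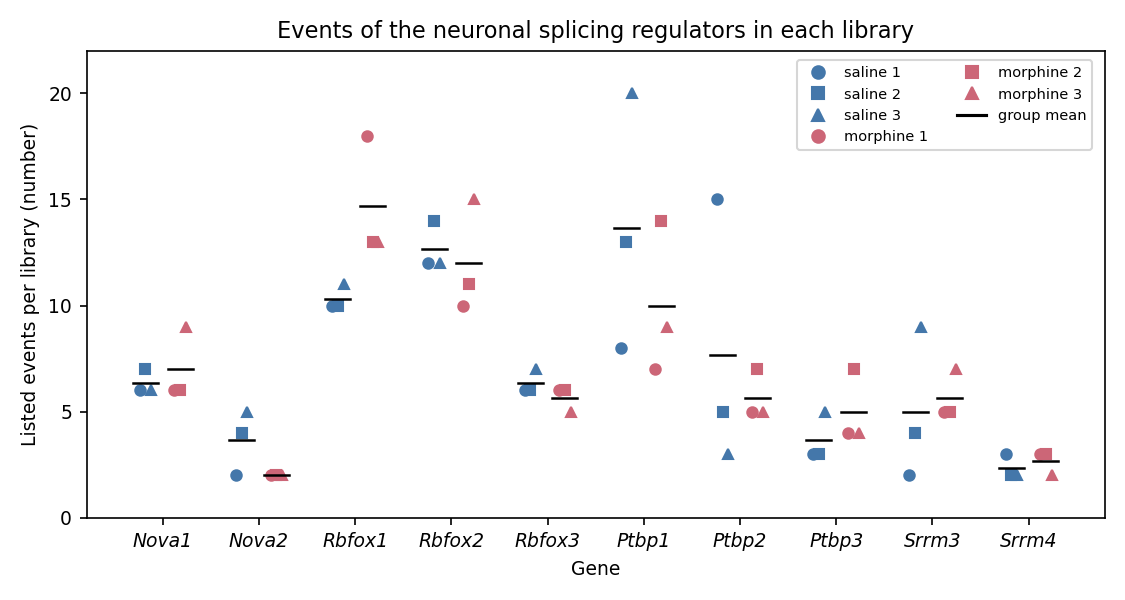
Number of listed events (vertical axis) of each of the 10 genes (horizontal axis) in the 3 saline libraries (blue) and the 3 morphine libraries (red), with the symbol giving the library and the black line the group mean. Rbfox1 is the gene whose 3 morphine libraries, at 13 to 18 events, all lie above its saline libraries, at 10 or 11.

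By the number of events, Rbfox1 was the one gene of the 10 whose groups did not overlap. It had 10, 10 and 11 events in the saline libraries and 18, 13 and 13 in the morphine libraries, or 10.3 ± 0.58 against 14.7 ± 2.89 (SD, n = 3 each). Some of these events overlap. In morphine 1 a retained intron of 15923 nt was also listed through alternative exon ends of 76 and 16052 nt. The exact permutation test gave p = 0.1, the smallest that the design allows, and the Benjamini-Hochberg adjusted p over all 16154 genes was 1. Among all genes, 1.81% had every morphine library above every saline library, against 1 of these 10. In the other direction the share was 0.966% of genes and 0 of these 10. With annotated events only, saline 3 had more events of Rbfox1 than morphine 3, so its groups overlapped. The plot of events per gene shows that the remaining 9 genes overlapped between the groups or met.

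Ptbp1 and Ptbp2 each had a library that stood apart. Ptbp1 had 8, 13 and 20 events in the saline libraries and 7, 14 and 9 in the morphine libraries, with saline 3 holding 20 of its 28 events. Ptbp2 had 15, 5 and 3 events in the saline libraries and 5, 7 and 5 in the morphine libraries, with saline 1 holding 15 of its 19. Leaving out saline 1 turned the difference of Ptbp2, morphine minus saline, from -2 to 1.67 events. Without saline 3 the difference of Ptbp1 fell in size from -3.67 to -0.5 events.

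The other genes had fewer events or smaller spreads. Nova1 had 6, 7 and 6 events with saline and 6, 6 and 9 with morphine, while Nova2 had 2, 4 and 5 against 2 in each morphine library. Rbfox2 had 12, 14 and 12 against 10, 11 and 15, and Rbfox3 had 6, 6 and 7 against 6, 6 and 5. Ptbp3 had 3, 3 and 5 against 4, 7 and 4. The groups of these genes overlapped or met in their numbers of events. Per 1000 listed events of the library, Rbfox3 had 0.103, 0.11 and 0.122 with saline and 0.0963, 0.099 and 0.0878 with morphine, all saline libraries above all morphine libraries (exact permutation p = 0.1). On that scale 3.93% of all genes separated in this direction, against 1 of the 10, and 2.08% in the other, against 1 of the 10, Rbfox1. Srrm3 had 2, 4 and 9 events with saline and 5, 5 and 7 with morphine, and Srrm4 had 3, 2 and 2 against 3, 3 and 2. Unadjusted p-values of the exact permutation tests for the genes other than Rbfox1 lay between 0.4 and 1. Measured by all events, Ptbp1 had more than 95.6% of listed genes and Nova2 more than 44.4%.

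Skipped exons were the most widely shared of the internal events of the 10 genes. There were 23 such events, of which 8 (34.8%) were listed in all 6 libraries, against 19.4% for skipping events of all other genes. The 8 include the 32-nt and 40-nt exons of Rbfox2 and their joint skipping, which are not independent. The contrast was not adjusted for the number of events per gene. Of the 23 events, 12 (52.2%) matched annotated exons, against 77.8% of the skipping events of other genes, a difference that was not tested. The libraries held 12, 14 and 18 skipping events with saline and 11, 14 and 18 with morphine. The groups had nearly the same range and the exact permutation test gave p = 1.

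**Figure D2:**
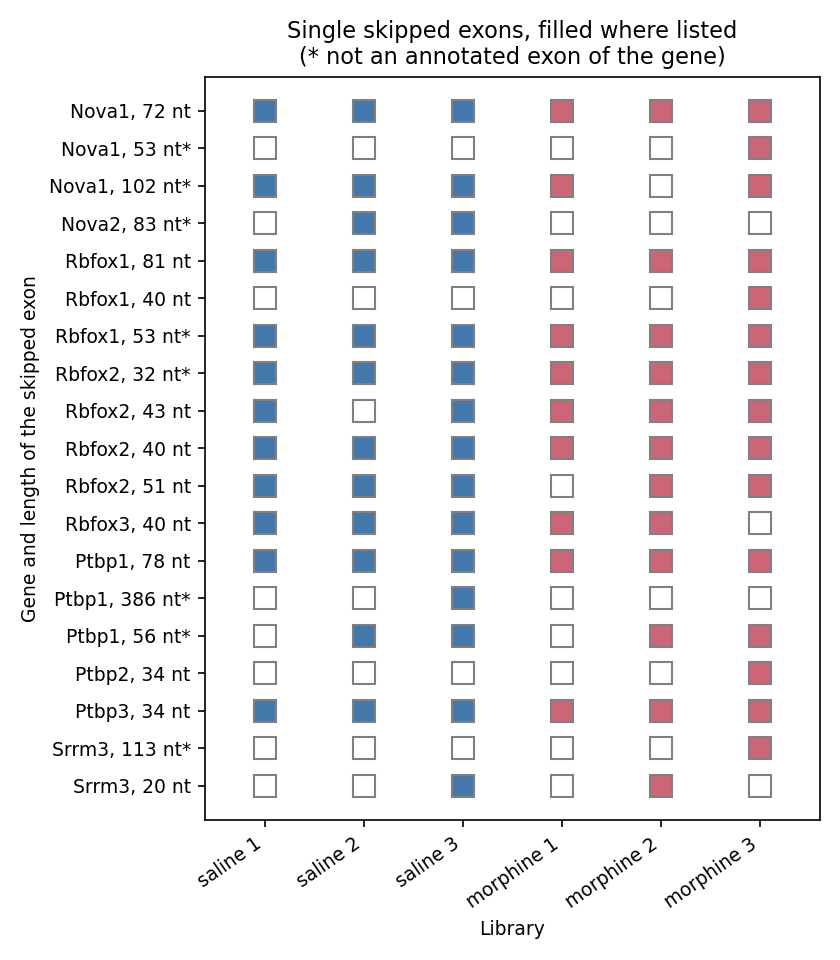
Listing of each single skipped exon (rows, gene and length, in nt) in the 6 libraries (columns). Filled squares mark a library that lists the exon as skipped, blue for saline and red for morphine, and an asterisk marks an exon that is not annotated. The Nova1 exon of 72 nt, the Ptbp1 exon of 78 nt and the Ptbp3 exon of 34 nt are filled in all 6 columns, and the 34-nt exon of Ptbp2 in morphine 3 alone.

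In Nova1, the 72-nt exon printed above was listed as skipped in 6 of 6 libraries. A further exon of 102 nt at chr12:46766290-46766391, which is not annotated, was listed in 5 of 6 libraries and was missing in morphine 2. A transcript start of Nova1 with the same donor was listed in morphine 2 and morphine 3. In Nova2, which encodes the paralog typical of cortex, an unannotated exon of 83 nt at chr7:18949515-18949597 was listed in saline 2 and saline 3 only. No other skipped exon of Nova2 was listed.

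Rbfox1 had a coding exon of 81 nt at chr16:7330362-7330442 and an unannotated exon of 53 nt at chr16:7391988-7392040, both listed in 6 of 6 libraries. Both spliced forms of each were thus assembled in saline and in morphine. No annotated transcript of Rbfox1 spans the 81-nt exon without it. The 40-nt exon of Rbfox1 was listed as skipped in morphine 3 only. The exon of 54 nt that the annotation marks as alternative in Rbfox1 was listed in 0 libraries.

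In Rbfox2, the homologous 40-nt exon was listed as skipped in 6 of 6 libraries. An unannotated exon of 32 nt at chr15:77089862-77089893 was listed in 6 of 6, and the joint skipping of the 32-nt and 40-nt exons, together 72 nt, also in 6 of 6. Neither exon is a multiple of 3 in length, whereas their sum is. The 43-nt exon at chr15:77091812-77091854, known in the field as the muscle-type exon, was listed in 5 of 6 libraries and was missing in saline 2. A coding exon of 51 nt at chr15:77231387-77231437 was listed in 5 of 6 and was missing in morphine 1.

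In Rbfox3, the 40-nt exon was listed not as skipped but as the shorter of 2 forms with the same donor. The longer form, of 181 nt, extended its acceptor side by 141 nt, a multiple of 3, and is coding. Both forms were listed in 6 of 6 libraries. A different exon of 40 nt at chr11:118610159-118610198, which holds no coding sequence, was listed as skipped in 5 of 6 libraries and was missing in morphine 3. The paralogs thus differed in how the 40-nt exon was listed, as skipped in 1 library for Rbfox1, skipped in 6 for Rbfox2 and as an acceptor choice in 6 for Rbfox3.

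In Ptbp1, the coding exon of 78 nt at chr10:79860117-79860194 was listed as skipped in 6 of 6 libraries. Its skipping is known to alter the spacing between RNA-binding domains of the protein. An unannotated exon of 56 nt at chr10:79860447-79860502 was listed in saline 2, saline 3, morphine 2 and morphine 3. The joint skipping of the 78-nt and 56-nt exons, together 134 nt, was listed in saline 2, saline 3 and morphine 3. The 34-nt exon of Ptbp1 printed above was not listed in any library.

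The homologous 34-nt exon of Ptbp2 was listed as skipped in 1 of 6 libraries, morphine 3. Annotated transcripts of Ptbp2 that span the exon without it are of the types nonsense-mediated decay and retained intron. In Ptbp3, an unrelated coding exon of 34 nt at chr4:59546149-59546182 was listed as skipped in 6 of 6 libraries. In Srrm3, an exon of 20 nt at chr5:135867127-135867146, of which 18 nt are coding, was listed in saline 3 and morphine 2. Srrm4 had only transcript-end events, and its annotated alternative exon of 16 nt was not listed.

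The annotation gives 19 exons of the 10 genes together with a junction that directly joins their 2 annotated neighbouring exons. The 72-nt exon of Nova1 and the 40-nt and 81-nt exons of Rbfox1 did not meet this condition. Of the 19 exons, 8 were listed as skipped in at least 1 library and 3 in all 6. The 3 were the 40-nt exon of Rbfox2, the 78-nt exon of Ptbp1 and the 34-nt exon of Ptbp3. Exons of 93 nt in Rbfox2 and Rbfox3, whose loss is known to remove part of the RNA-binding domain, were listed in 0 libraries.

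Acceptor choices differed in how widely they were listed. Rbfox2 had forms of 133 and 143 nt at chr15:77097940-77098082, 10 nt apart, in 6 of 6 libraries, and the longer form is not annotated. The acceptor pair of Ptbp2, with forms of 140 and 155 nt, was listed in saline 1, saline 2 and morphine 2. The corresponding pair of Ptbp3, with forms of 125 and 140 nt, was listed in saline 3 and morphine 2. Ptbp1 had forms of 200 and 320 nt at chr10:79858952-79859271, 120 nt apart, in saline 1, saline 2, morphine 1 and morphine 2. For all alternative exon ends together, the libraries held 12, 12 and 14 events with saline and 8, 12 and 7 with morphine. Each form counts as an event there, so a choice between forms is counted more than once. Forms that span a retained intron, as the 16052-nt form of Rbfox1 in morphine 1, are also among them. The groups met at 12 events, and the exact permutation test gave p = 0.3. Per 1000 listed events of the library, the values were 0.206, 0.219 and 0.245 with saline and 0.128, 0.198 and 0.123 with morphine, so that every saline library was above every morphine library (exact permutation p = 0.1, the smallest possible). This scale depends on the listed events of all genes, which were most numerous in morphine 1, at 62313. Alternative exon ends of all genes were not compared in this way.

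Retained introns were the least shared events of these genes. The 31 retention events included 0 listed in all 6 libraries, against 1.698% of the retention events of all other genes. Of the 31, 20 (64.5%) were listed in a single library, against 67.6% for other genes. The libraries held 8, 6 and 11 retention events with saline and 6, 7 and 8 with morphine, and the groups overlapped with p = 0.7 by the exact permutation test. Taken one by one, 24 introns of 6 genes were retained, of 68 to 15923 nt with a median of 2371.5 nt, and 20 of them are annotated. Nova1, Nova2, Rbfox3 and Srrm4 had no retained intron in the lists.

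**Figure D3:**
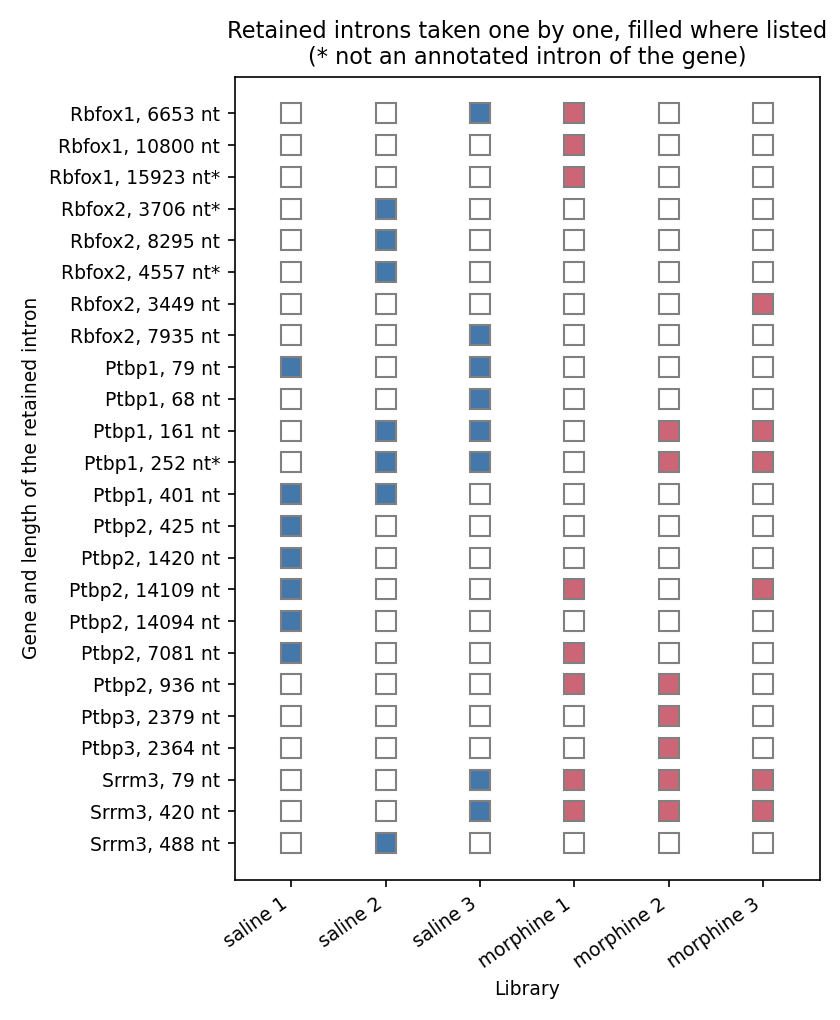
Listing of each retained intron (rows, gene and length, in nt), taken one by one, in the 6 libraries (columns), with filled squares where the list gives the intron as retained, blue for saline and red for morphine. An asterisk marks an intron that is not annotated. The 2 neighbouring Srrm3 introns of 79 and 420 nt are filled in saline 3 and in all 3 morphine libraries.

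In Srrm3, the annotated introns of 79 nt at chr5:135852312-135852390 and 420 nt at chr5:135852472-135852891 were each listed as retained in saline 3 and in morphine 1, morphine 2 and morphine 3. Their joint retention in a single transcript was listed in 3 of 3 morphine libraries and in 0 of 3 saline libraries. It was the 1 event among the 145 that met this condition, which 0.382% of all listed events met, and 0.433% of the 5316 runs of retained introns did so against 1 of 6 in these genes. In the opposite direction, 0 of the 145 events were listed in all saline libraries and no morphine library, against 0.278% of all events. In saline 3 the introns were listed as separate retention events, and morphine 3 listed them both ways. With each intron taken on its own, 0 of the 10 genes' events separated the groups. Morphine 1 had the most retention events of all genes, 9604, and saline 3 the fewest, 5473. The part of that spread in the Srrm3 result was not tested.

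In Ptbp1, introns of 161 nt at chr10:79859956-79860116 and 252 nt at chr10:79860195-79860446 were retained in saline 2, saline 3, morphine 2 and morphine 3. These were the introns on either side of the 78-nt exon. The 252-nt intron is not annotated and ends where the unannotated 56-nt exon begins. It can thus be listed only where such an exon was assembled. The match of its libraries with the 4 that listed the 56-nt exon is therefore no separate observation. Relative depth was 1.066, 1.365, 1.594 and 1.285 in these 4 libraries, against 1 in saline 1 and 1.198 in morphine 1. The part of depth was not tested.

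In Ptbp2, the intron of 14109 nt at chr3:119726206-119740314 was retained in saline 1, morphine 1 and morphine 3. Saline 1 also listed introns of 425, 1420, 7081 and 14094 nt as retained, the last being the same intron as the 14109-nt intron with the other of the acceptors 15 nt apart of the neighbouring exon. The 5 retained introns of saline 1 in Ptbp2 were the largest number in any library for that gene. The intron of 936 nt was retained in morphine 1 and morphine 2. The remaining introns of Rbfox1, Rbfox2 and Ptbp3 were each listed in 1 or 2 libraries.

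Transcript ends made up 64 of the 145 events. The libraries held 35, 36 and 37 with saline and 41, 41 and 38 with morphine, with means of 36 ± 1 and 40 ± 1.73 (SD, n = 3 each). Every morphine library was above every saline library, and the exact permutation test gave p = 0.1, the smallest it can give. The same comparison was not made for transcript ends of all genes. Per 1000 listed events of the library, the values were 0.601, 0.658 and 0.647 with saline and 0.658, 0.677 and 0.667 with morphine (exact permutation p = 0.1). On that scale saline 2 and morphine 1 were equal as rounded here. Rbfox1 supplied most of the difference of 4 events: without it the difference was 1.33 events (p = 0.3, exact permutation test), an alternative chosen after seeing the data. With annotated ends only, the difference was 2.67 events and the test gave p = 0.3 (exact permutation).

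**Figure D4:**
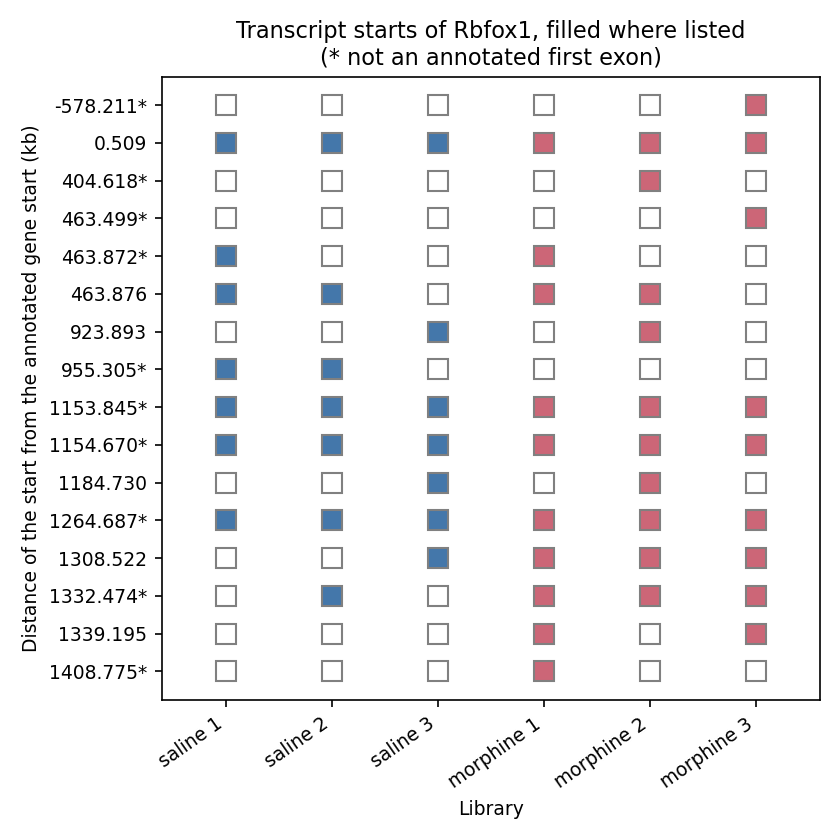
Listing of each transcript start of Rbfox1 (rows, distance of the splice side of the first exon from the annotated gene start, in kb) in the 6 libraries (columns), with filled squares where the start is listed, blue for saline and red for morphine. An asterisk marks a start that is not an annotated first exon. Morphine libraries hold 9 or 10 starts and saline libraries 7 each.

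Rbfox1, a gene of 1526 kb on chromosome 16, had 16 listed starts that spanned 1987 kb, and 6 of them are annotated. Its transcript starts numbered 7 in each saline library and 10, 10 and 9 in the morphine libraries (7 ± 0 against 9.67 ± 0.58, SD, n = 3 each, p = 0.1 by the exact permutation test). Counting starts apart from ends was chosen after seeing the data. Among all genes, 0.718% had more starts in every morphine library than in any saline library, against 1 of the 10, and 0.483% the reverse, against 0 of the 10. Starts at 0.509, 1153.845, 1154.67 and 1264.687 kb from the annotated gene start were listed in 6 of 6 libraries, and the first of these is annotated. The annotated start at 1308.522 kb was listed in saline 3 and all 3 morphine libraries. The unannotated start at 1332.474 kb was listed in saline 2 and all 3 morphine libraries. The annotated start at 1339.195 kb was listed in morphine 1 and morphine 3 alone, and the unannotated one at 955.305 kb in saline 1 and saline 2 alone. Unannotated starts at -578.211, 404.618, 463.499 and 1408.775 kb were each listed in a single morphine library and no saline library. Starts at 463.872 and 463.876 kb, counted apart though their donors lie close together, were both listed in saline 1 and morphine 1. With annotated starts alone, saline 3 had more starts than morphine 3, so the groups overlapped. No start of Rbfox1 was in all libraries of a group and none of the other. The single listed end of Rbfox1, at 1524.336 kb, was in 6 of 6.

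The other genes had an annotated start in 6 of 6 libraries close to the annotated gene start, with the exception of Srrm4, whose start at 0.483 kb was missing in morphine 1. Nova1 had 3 starts in 6 of 6, at 0.313, 0.889 and 1.543 kb, and an end at 117.956 kb in 6 of 6. Rbfox2 had starts at 0.64, 61.514 and 153.474 kb in 6 of 6, and Rbfox3 at 2.293 and 342.046 kb. These starts, from several first exons, were stable in both groups. The end of Rbfox2 at 222.798 kb and that of Srrm3 at 66.19 kb were in 5 of 6, missing in morphine 1 and saline 2. Ptbp2 had last exons with acceptors at 64.006 and 64.009 kb in 6 of 6, which need not be separate ends of the transcript. Starts of Nova2 at 0.276 kb, Ptbp1 at 0.294 kb, Ptbp2 at 1.264 kb, Ptbp3 at 0.216 kb and Srrm3 at 0.15 kb were in 6 of 6. The ends of Nova2 at 31.648 kb, Rbfox3 at 420.356 kb, Ptbp1 at 8.718 kb, Ptbp3 at 72.349 kb and Srrm4 at 146.943 kb were also in 6 of 6. A second start of Srrm3, at 11.726 kb, was in saline 3 and all 3 morphine libraries.

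**Figure D5:**
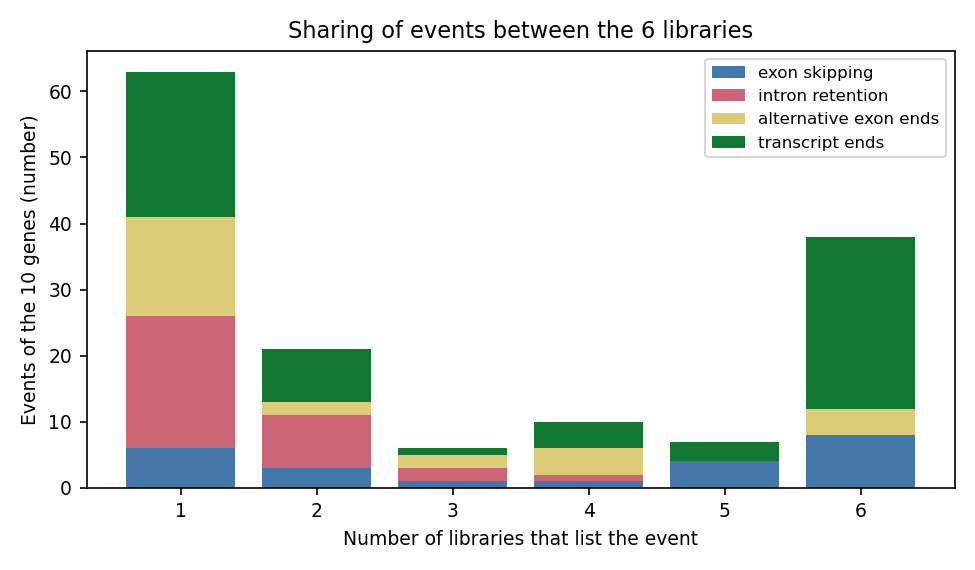
Number of events of the 10 genes (vertical axis) by the number of libraries that list them (horizontal axis), stacked by kind of event. The 38 events in all 6 libraries are mostly transcript ends (26) and skipping events (8), and the 63 in a single library include 20 intron retention events.

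Across all kinds, 38 of the 145 events (26.2%) were listed in all 6 libraries and 63 (43.4%) in 1 library, against 20.4% and 50.6% for all other genes. Between these extremes, 21 events were in 2 libraries, 6 in 3, 10 in 4 and 7 in 5. Of the events, 92 (63.4%) matched the annotation, against 64.2% elsewhere.

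Other regulators and known targets of these proteins gave the setting. Of 17 further regulators of the Celf, Elavl, Mbnl, Khdrbs and Qk families, 16 were listed in all 6 libraries, with a median of 11 events per gene, against 12.5 for the 10 genes and 5 for all genes. Of their 233 events, 2 were listed in all morphine and no saline library and 0 in the reverse, against 0.382% and 0.278% of all events. Mbnl1 had every saline library above every morphine library in its number of events (exact permutation p = 0.1, adjusted p = 1 over all genes). It was 1 of the 17 to do so, against 0.966% of all genes, and 0 of the 17 had the reverse, against 1.81%. Of 12 textbook targets, all were listed in 6 libraries, with a median of 17.5 events, and 2 of their 253 events were in all morphine and no saline library and 1 in the reverse. Apbb1 had every saline library above every morphine library (exact permutation p = 0.1, adjusted p = 1 over all genes). That was 1 of the 12 targets, and 0 of the 12 had the reverse. Among target exons, the 18-nt exon of Src, known to be repressed by Ptbp1, was listed as skipped in 5 of 6 libraries, and the 6-nt exon of Apbb1, a microexon, in 5 of 6. Dlg4 had no skipping event, and Rest and Cacna1c had no skipped exon listed in at least 3 libraries. Presence in both groups says nothing of a change in inclusion, which these lists do not hold.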

How the data were processed

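The 6 event lists, deposited by the authors, carry an event type, gene, position, pattern and strand per entry, in the layout of the ASprofile program. Per the study's methods, strand-specific libraries were mapped with HISAT2 and assembled with StringTie. The genome build was not given in the sources used here, and 99.2% of the gene identifiers were found in GENCODE M21 (GRCm38), which was used for annotation and shared the exact positions of 63.4% of the events described. A column named fpkm held whole numbers from -25 to 0, was no FPKM and was not used as a level. The authors' table of 31 lncRNA transcripts holds raw read counts and FPKM per library, together with the authors' own log2 fold changes and p-values (false discovery rates), which were not used. Relative depth came from count and FPKM of 91 values with at least 10 counts. The number of per-sample columns left unused was 0.

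The paired entries with and without an exon or intron were joined into 1 event, keyed on class, gene, strand, start and end (on the splice side alone for starts and ends of transcripts). The forms of an alternative exon end were not joined, and each counts as an event. The 20 types made 12 classes. Groups came from the treatment labels. Replicate numbers follow accession order and pair nothing. Numbers of events were tested by exact permutation (two-sided), run over all genes and adjusted by Benjamini-Hochberg, after a test on simulated data. Events were named when group-specific or listed in at least 3 libraries, and for each gene the most widely listed start and end. Some events listed in fewer libraries, or in none, are also given as description. Exon sequences were read from GENCODE transcripts. Motif searches in introns were not run, since no genome sequence was used here. Protein sequences were not used here. Alternatives were another event identity, annotated events only, events relative to all listed events of the library, and each library left out. The genes, lists and tests were chosen with earlier results of these data known. Tables were handled with pandas 2.3.3 and numpy 2.4.6 under Python 3.11.15, and plots drawn with matplotlib 3.10.9.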

Additional observations from a re-analysis of the deposited data

How the results depend on the processing

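No comparison passed a threshold, since 3 libraries against 3 allow no p below 0.1. The count of 1 event confined to a group became 2 with identity by all coordinates and pattern and 0 with each retained intron on its own (chosen after seeing the data), and 2 to 5 with a library left out. Leaving out a library loosens the condition to 2 libraries of its group. The share of all events was not computed for these settings. Listed in at least 2 libraries of a group and none of the other the count was 9 of 145 (6.21%), against 5.74% of all events. The difference in all events of the 10 genes, morphine minus saline, was -1.33 and ran from -3.67 to 2.83 with a library left out, being above 0 without saline 3 and without morphine 1. With identity by all coordinates and pattern it was -5.67, and that in intron retention went from -1.33 to -5.33. That in skipped exons was -0.333, or 0.667 with annotated events only, and ran from -2.17 to 1.33. Ranges that crossed 0 were also found for Nova1 (-0.333 to 1.17), Rbfox2 (-2.17 to 0.333), Ptbp2 (-4.33 to 1.67) and Srrm3 (-0.833 to 2.67). For transcript ends the difference of 4 ran from 3.5 to 5 and was 2.67 (p = 0.3 by the exact permutation test) with annotated events only. For Rbfox1 the difference of 4.33 ran from 2.67 to 5.17, and its groups overlapped with annotated events only. For alternative exon ends the difference of -3.67 was -2.33 with annotated events only. Per 1000 listed events, alternative exon ends and Rbfox3 went from overlapping groups to saline above morphine in every library (difference -0.0735 and -0.0173, each p = 0.1 by the exact permutation test). For transcript ends on that scale, saline 2 and morphine 1 were both at 0.658. The cause of these shifts was not tested. No paired analysis was possible because the labels give no shared replicate number. The lists limit all results: they hold no level, no inclusion share and no read support.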
